A study of Mus musculus with 32 samples.

Results

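The CC chemokine ligands are small secreted proteins that draw leukocytes towards a site of injury. They were taken as every gene of the deposited count table whose symbol is Ccl followed by digits only, which gave 11 of the 5582 genes listed: Ccl2, Ccl3, Ccl4, Ccl5, Ccl6, Ccl7, Ccl8, Ccl9, Ccl12, Ccl17 and Ccl22. Bulk RNA sequencing measured them in brain tissue of mice on the C57BL/6 background that carried human APOE4 or human APOE3 in place of the mouse gene, homozygous for the targeted replacement in every group. The 30 animals whose labels agree fell into APOE4 TBI (8 animals), APOE4 sham (7), APOE3 TBI (8) and APOE3 sham (7). TBI, for traumatic brain injury, was a single controlled cortical impact with a tip of 3 mm to a depth of 1 mm through a craniotomy of 4.5 mm over the left parietal cortex, and shams had the anaesthesia and the craniotomy without the impact. Cortex and hippocampus around the injury were collected jointly at day 14, after removal of the tissue beneath. The age of the animals is not spelled out in the labels, and no wild type mouse was among the groups, so both genotypes share the replaced gene and every sham shares the opened skull.

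CC ligands carry a pair of adjacent cysteines near the start of the mature protein, which names the class. They act on G protein-coupled receptors of the Ccr family on monocytes, macrophages, microglia and lymphocytes, and a ligand often has more than 1 receptor. In injured brain they are known as products of microglia, astrocytes, endothelium and arriving macrophages, induced through NF-kB and cytokine signalling. Ccl2, Ccl7 and Ccl12 are ligands of Ccr2, Ccl3 and Ccl5 bind Ccr1, and Ccl17 and Ccl22 bind Ccr4.

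The ligands lie in 3 neighbourhoods of the mouse genome (RefSeq coordinates, GRCm38.p6). Ccl2, Ccl7, Ccl12 and Ccl8 follow each other on the plus strand of chromosome 11, from the start of Ccl2 at 82035577 to the end of Ccl8 at 82116799. Ccl5, Ccl9, Ccl6, Ccl3 and Ccl4 lie further along the same chromosome, from the start of Ccl5 at 83525778 to the end of Ccl4 at 83664683, with Ccl4 alone on the plus strand. Ccl22 and Ccl17 lie on the plus strand of chromosome 8, from 94745684 to 94812038. The class signature is printed for 5 ligands whose counts differed most in kind, as 42 bases of coding sequence read 5′ to 3′ on the coding strand from the GENCODE M21 transcripts (GRCm38), with the codons of the 2 adjacent cysteines in capitals.
Ccl2: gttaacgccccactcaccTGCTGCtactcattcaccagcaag
Ccl12: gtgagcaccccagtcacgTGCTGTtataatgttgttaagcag
Ccl5: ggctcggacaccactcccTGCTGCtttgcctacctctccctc
Ccl6: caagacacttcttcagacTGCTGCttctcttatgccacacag
Ccl22: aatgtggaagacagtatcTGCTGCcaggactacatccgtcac
All 11 ligands had such a pair, and the second codon was TGT in Ccl4 and Ccl12 and TGC in the other 9. Over whole coding sequences the closest pairs were neighbours on the chromosome. Ccl8 and Ccl12 shared 70.5% of 288 aligned bases, Ccl3 and Ccl4 69.6% of 270, and Ccl6 and Ccl9 69.3% of 342. No stretch of 50 bases was shared between 2 of the ligands' exons, so a uniquely matched read of that length tells the ligands apart. For Ccl9, 1.97% of such stretches also occurred in exons of another gene. The RefSeq gene spans of Ccl3 and Ccl4, introns included, overlap by 755 bases on opposite strands. Their GENCODE M21 exons do not overlap. The annotation and the strand setting of the counting are not given in the sources used here. Whether any counted read fell in that overlap is therefore not known.

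RefSeq promoter sequence (GRCm38.p6, from 250 bases before to 50 after an annotated start) was at hand for 7 ligands, all but Ccl2, Ccl4, Ccl5 and Ccl7. For Ccl17 that window (chr8:94810203-94810502) lies inside the gene span given above, which begins at 94809380. For the others it stands at the start of the gene. The letters TATAAA on the gene's strand were present in 3 of these 7 (Ccl12, Ccl8 and Ccl9), against 8.32% of 32851 mouse promoters of the same length. In Ccl12 and Ccl8, neighbours whose levels are set out below, the match stood at almost the same distance from the start, from position -31 to -26 and from -32 to -27. The 80 bases around both starts are shown for that reason, with TATAAA in capitals, from chr11:82101785-82101864 for Ccl12 and from chr11:82115125-82115204 for Ccl8, both on the plus strand.
Ccl12: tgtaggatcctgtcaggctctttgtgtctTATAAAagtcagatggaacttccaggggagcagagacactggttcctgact
Ccl8: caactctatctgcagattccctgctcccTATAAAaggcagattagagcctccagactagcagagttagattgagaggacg
An NF-kB core (GGGNNNTTC, both strands) was found in 2 of the 7 (Ccl17 and Ccl9), against 14% of all promoters. The Ccl17 match comes from the window inside its gene span. The AP-1 letters TGANTCA (both strands) were found in 1 (Ccl9), against 7.81%. The interferon response core TTTCNNTTT (10.6% of all promoters) and the C/EBP core TTGCNNAA (10.8%), read on both strands, were found in none of the 7. A match is a run of letters and not a measured binding site.

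Each library held between 2262242 and 8606717 counts of the genes in the table, and the totals left a gap between 16 shallow libraries (at most 3595246) and 16 deep ones (at least 4648345), with both kinds in every group. The ligands are thinly counted in these libraries. Values are given as raw counts and as CPM, the count in 1000000 counts of the TMM-scaled total of the library. A library at 0 allows a level of up to 0.346 to 1.26 CPM in TBI animals and up to 0.386 to 1.37 CPM in shams (3 counts per library, counting error only). Of the 11 ligands 8 passed the filter on low counts and were tested. Most of these passed through the TBI libraries, where they are high. The authors had also selected the listed genes on TBI against sham in these animals. Injury results are therefore not independent of how the table was made, and counts of ligands higher in TBI describe the size of the difference and add no separate evidence of its direction.

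Summed over the 11 ligands, TBI animals held 67 to 508 counts (median 186) and 21.7 to 72.2 CPM (median 33.4), against 16 to 68 counts (median 39) and 5.40 to 13.2 CPM (median 7.61) in shams. The CPM ranges did not overlap. The neighbourhood of Ccl2, Ccl7, Ccl12 and Ccl8 held 3.17 to 22.7 CPM in TBI animals and 0.43 to 1.82 CPM in shams. That of Ccl5, Ccl9, Ccl6, Ccl3 and Ccl4 held 15.7 to 49.3 CPM in TBI animals and 3.99 to 9.69 CPM in shams. In bulk tissue, more cells of a type and more RNA per cell cannot be told apart.

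**Figure D1:**
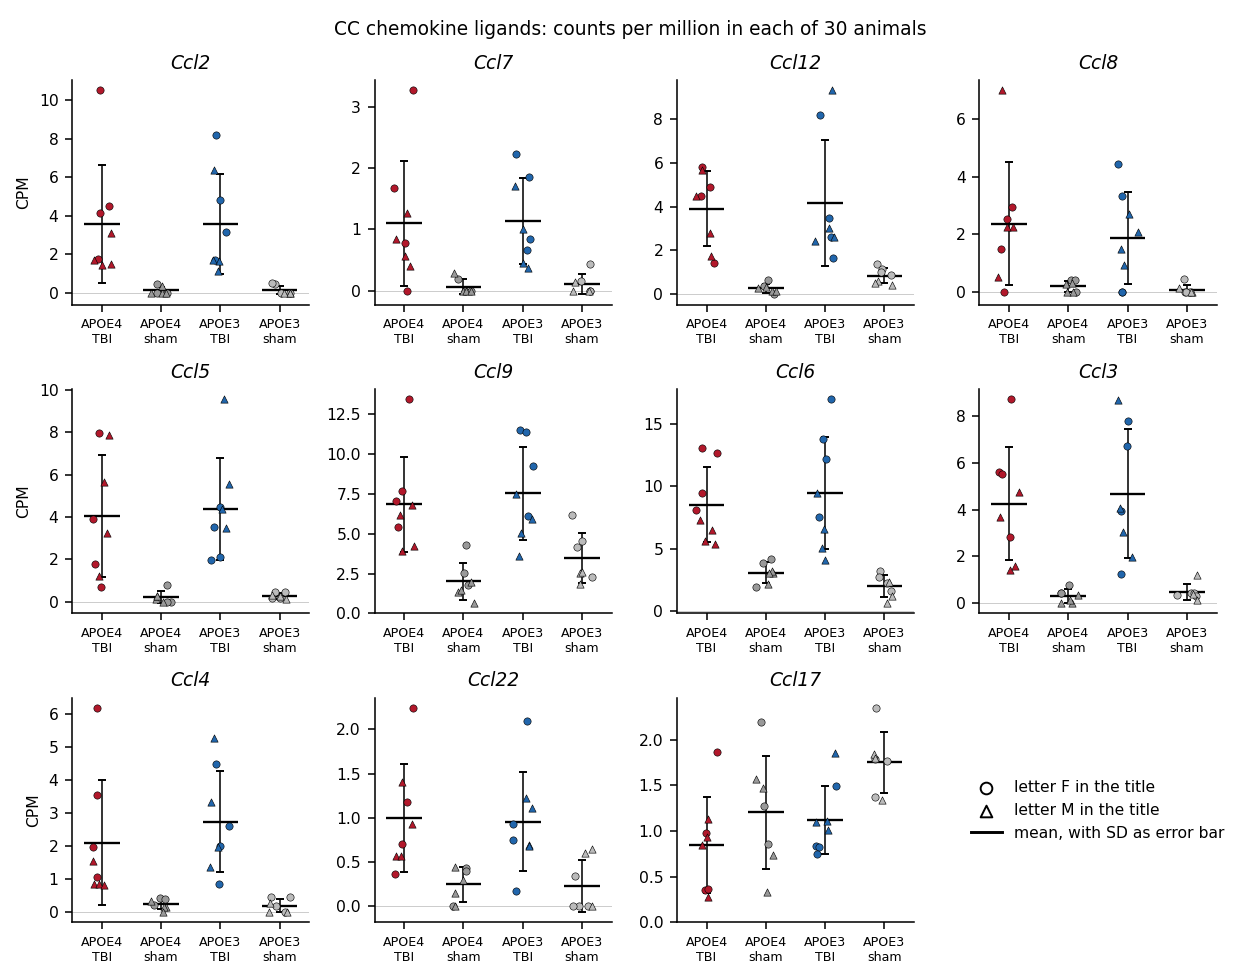
CPM (linear axis) of each of the 11 CC ligands in 30 animals, 1 panel per gene, with each animal as a point (circle for the letter F and triangle for the letter M in its title) and the group mean ± SD in black. Every TBI animal stands above every sham for Ccl2, Ccl3, Ccl4 and Ccl12, while the groups overlap for Ccl9 and Ccl17.

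Ccl2, the main ligand that draws Ccr2-bearing monocytes out of the blood, was nearly absent from shams. It had 3 to 52 counts in TBI animals (median 13, 1.11 to 10.5 CPM), against 0 to 3 counts in shams, with 10 of 14 sham libraries at 0 and 6 counts over all shams. All 16 TBI animals lay above all 14 shams. By group it averaged 3.57 ± 3.06 CPM in APOE4 TBI (SD, n = 8) and 0.110 ± 0.189 in APOE4 sham (n = 7), and 3.58 ± 2.61 in APOE3 TBI (n = 8) and 0.135 ± 0.230 in APOE3 sham (n = 7). The log2 difference between TBI and sham over both genotypes was 4.91 ± 0.49 (SE derived from the F statistic, edgeR quasi-likelihood test, adjusted p = 5.22e-10). Few sham counts leave its size loose: the ratio of pooled CPM was 38.0, with a 95% counting interval of 17.2 to 105.

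Ccl12, also a Ccr2 ligand in the mouse, had 4 to 76 counts in TBI animals (median 18, 1.41 to 9.29 CPM), against 0 to 7 counts in shams (median 2, at most 1.37 CPM), where 36 counts were found in all. Again every TBI animal was above every sham. Group means were 3.91 ± 1.71 CPM in APOE4 TBI and 0.280 ± 0.209 in APOE4 sham, and 4.16 ± 2.88 in APOE3 TBI and 0.852 ± 0.343 in APOE3 sham (SD, n = 8 and 7 in each genotype). The log2 difference was 2.86 ± 0.33 (edgeR, adjusted p = 6.99e-09). Ccl7, a further Ccr2 ligand, was too low to pass the filter. It had 0 to 14 counts in TBI animals (84 in all) and 0 to 2 in shams (6 in all, 9 of 14 at 0), and 13 of 16 TBI animals lay above the highest sham. The pooled ratio was 12.1 (95% counting interval 5.35 to 34.0), and in a fit without the filter its log2 difference was 3.26 ± 0.49 (edgeR, adjusted p = 8.05e-07).

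Ccl8, which in the mouse signals through Ccr8, was the most uneven of the tested ligands. TBI animals had 0 to 25 counts (median 8, 0 to 7.01 CPM), with 3 of 16 at 0, and shams had 0 to 2 counts (9 in all), with 8 of 14 at 0. The groups overlap through those 3 TBI animals, all of them with the letter F in their titles, and the other 13 lay above the highest sham. Group means were 2.38 ± 2.13 CPM in APOE4 TBI and 0.202 ± 0.195 in APOE4 sham, and 1.87 ± 1.59 in APOE3 TBI and 0.0813 ± 0.166 in APOE3 sham (SD, n = 8 and 7 in each genotype). The log2 difference was 3.67 ± 0.60 (edgeR, adjusted p = 3.70e-06), the widest error of the 8. The pooled ratio was 14.5 (95% counting interval 7.41 to 32.2).

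Ccl3 and Ccl4, macrophage inflammatory proteins, of which Ccl3 binds Ccr1, separated the groups without overlap. Ccl3 had 3 to 71 counts in TBI animals (median 17, 1.26 to 8.70 CPM), against 0 to 4 counts in shams (23 in all, at most 1.23 CPM). Ccl4 had 2 to 43 counts in TBI animals (median 9.5, 0.799 to 6.16 CPM), against 0 to 2 counts in shams (12 in all, 4 of 14 at 0). Their sham levels were thus a few counts per library, and the lowest TBI animals came close to them. Ccl3 averaged 4.26 ± 2.42 CPM in APOE4 TBI and 0.305 ± 0.285 in APOE4 sham, and 4.69 ± 2.74 in APOE3 TBI and 0.474 ± 0.348 in APOE3 sham. Ccl4 averaged 2.10 ± 1.88 CPM in APOE4 TBI and 0.238 ± 0.157 in APOE4 sham, and 2.72 ± 1.53 in APOE3 TBI and 0.189 ± 0.203 in APOE3 sham (SD, n = 8 and 7 in each genotype). The log2 differences of 3.56 ± 0.36 for Ccl3 and 3.57 ± 0.42 for Ccl4 were within 1 SE of each other (edgeR, adjusted p = 8.58e-10 and 1.13e-08).

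Ccl5, a ligand of Ccr1 that is known from T cells, NK cells and activated glia, had 2 to 78 counts in TBI animals (median 17, 0.704 to 9.54 CPM), against 0 to 4 counts in shams (16 in all, at most 0.799 CPM). The groups touched at 1 animal on each side: 15 of 16 TBI animals lay above the highest sham, APOE4 sham replicate 6, and the lowest TBI animal was APOE4 TBI replicate 5. Group means were 4.04 ± 2.87 CPM in APOE4 TBI and 0.218 ± 0.287 in APOE4 sham, and 4.38 ± 2.41 in APOE3 TBI and 0.280 ± 0.134 in APOE3 sham (SD, n = 8 and 7 in each genotype). The log2 difference was 3.98 ± 0.40 (edgeR, adjusted p = 7.93e-10).

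Ccl6 and Ccl9, ligands of Ccr1 that myeloid cells of rodents make, differed from the ligands above in being counted in every sham. Ccl6 had 11 to 91 counts in TBI animals (median 38.5, 4.08 to 16.9 CPM), against 2 to 21 counts in shams (median 9.5, 0.614 to 4.19 CPM). Ccl9 had 14 to 61 counts in TBI animals (median 31, 3.58 to 13.4 CPM), against 2 to 25 counts in shams (median 11, 0.675 to 6.17 CPM). Ccl6 overlapped by 1 animal on each side, and for Ccl9 only 9 of 16 TBI animals lay above the highest sham. The log2 difference was 1.83 ± 0.18 for Ccl6 (edgeR, adjusted p = 2.93e-10), a fold of 3.55. For Ccl9 it was 1.45 ± 0.17 (edgeR, adjusted p = 1.86e-08), a fold of 2.74. Both sizes were below those of the other 6 tested ligands.

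Ccl22 and Ccl17, ligands of Ccr4 that dendritic cells and macrophages make and that draw T cells, were apart from the other ligands in position. In TBI animals they were about as thinly counted as Ccl7. Ccl22 had 1 to 12 counts in TBI animals (73 in all) and 0 to 5 in shams (19 in all), with 12 of 16 TBI animals above the highest sham. In the fit without the filter its log2 difference was 1.67 ± 0.39 (edgeR, adjusted p = 3.63e-04). Ccl17 was the only ligand of the 11 that was lower in TBI. It had 1 to 16 counts in TBI animals (84 in all, 0.983 ± 0.464 CPM, n = 16) and 1 to 14 counts in shams (102 in all, 1.48 ± 0.56 CPM, n = 14), with wide overlap. Its log2 difference in the fit without the filter was -0.50 ± 0.21 (edgeR, adjusted p = 0.0298), and the pooled ratio was 0.71 (95% counting interval 0.53 to 0.96). It missed the threshold within each genotype, at -0.43 ± 0.33 in APOE4 and -0.55 ± 0.29 in APOE3 (edgeR, adjusted p = 0.222 and 0.0844).

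Among the 8 tested ligands all 8 were higher in TBI at an adjusted p under 0.05, where 48.2% of the 5371 tested genes were. That share is high because the table was selected on this contrast. A rise of at least 4-fold was fitted for 6 of the 8, against 2.14% of all tested genes, and all TBI animals lay above every sham for 4 of the 8, against 5.59%. The median log2 difference was 3.56 over the tested ligands and 0.10 over all tested genes. Ordered by size among the 5371, Ccl2 stood at place 11, Ccl5 at 25, Ccl8 at 33, Ccl4 at 35, Ccl3 at 37, Ccl12 at 60, Ccl6 at 157 and Ccl9 at 245. In the authors' deposited table the log2 coefficients of the 11 ligands run from -0.47 for Ccl17 to 4.04 for Ccl2.

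Levels of different genes were compared per kb of exon (union of the GENCODE M21 exons), which put Ccl12 first in TBI animals and Ccl17 first in shams. In TBI animals the order was Ccl12 (7.52 ± 4.27 CPM per kb, SD, n = 16), Ccl3 (5.84 ± 3.27), Ccl6 (5.001 ± 2.079), Ccl5 (4.38 ± 2.67), Ccl8 (4.16 ± 3.58), Ccl4 (3.65 ± 2.56), Ccl2 (3.138 ± 2.414), Ccl9 (2.36 ± 0.94), Ccl17 (1.91 ± 0.90), Ccl7 (1.40 ± 1.05) and Ccl22 (0.419 ± 0.244). No neighbour in that order differed from the next by more than the SD of the differences within animals. In shams the order was led by Ccl17 (2.88 ± 1.08 CPM per kb, n = 14), Ccl6 (1.40 ± 0.56), Ccl12 (1.05 ± 0.75) and Ccl9 (0.897 ± 0.500), and the remaining 7 were at 0.101 to 0.509. Only the step between Ccl17 and Ccl6 in shams exceeded that SD, with Ccl17 above Ccl6 in 11 of 14 animals. As a share of the summed level per kb, Ccl17 held 4.81% in TBI animals and 36.3% in shams. Ccl2 held 7.89% in TBI animals and 1.36% in shams, and Ccl12 held 18.9% in TBI animals and 13.3% in shams. The union of exons can be longer than the transcripts in use, which lowers such values for genes with many exon records. Ccl6 has 9 of them, Ccl9 has 8, Ccl22 has 7 and Ccl17 has 3, so the step between Ccl17 and Ccl6 depends on the lengths used.

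**Figure D2:**
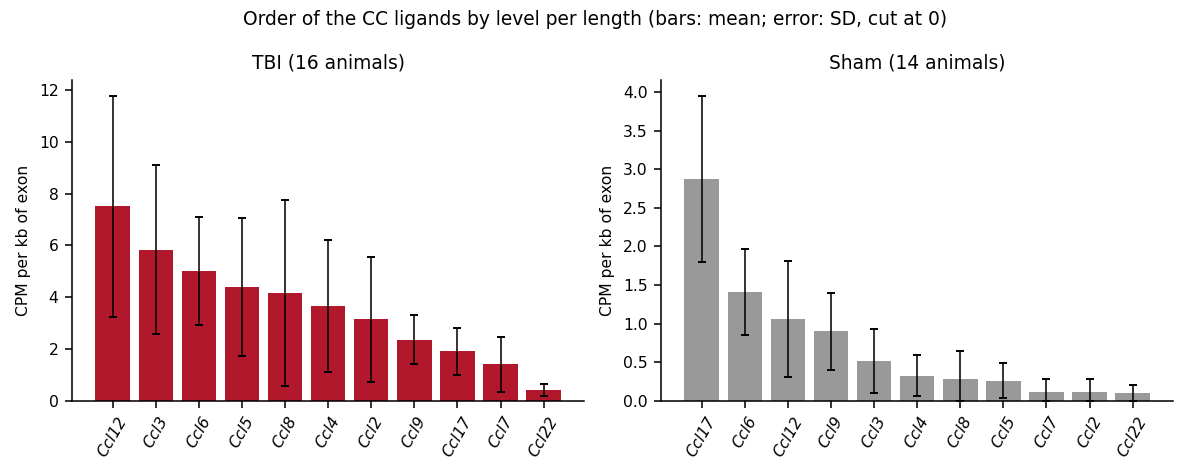
Mean CPM per kb of exon of each CC ligand in 16 TBI animals (left panel) and 14 shams (right panel), sorted from high to low, with the SD as error bar. Ccl12 leads at 7.52 in TBI animals, and Ccl17 leads at 2.88 in shams.

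Within each genotype all 8 tested ligands were higher after injury. In APOE4, where 33.9% of all tested genes were higher, the log2 differences ran from 1.40 ± 0.22 for Ccl6 to 5.11 ± 0.76 for Ccl2, with a median of 3.44. In APOE3, where 38.0% were higher, they ran from 1.21 ± 0.23 for Ccl9 to 4.77 ± 0.66 for Ccl2, with a median of 3.79. Ccl12 differed by 3.62 ± 0.52 in APOE4 and by 2.41 ± 0.41 in APOE3, and Ccl4 by 2.96 ± 0.60 in APOE4 and by 4.13 ± 0.58 in APOE3. The difference between the genotypes in the injury effect was tested as an interaction, APOE4 minus APOE3. It passed for 0 of the 8 ligands in edgeR, DESeq2 and limma-voom, as for 0% of all tested genes in edgeR, where 99 genes had an unadjusted p under 0.05. Ccl6 was the 1 ligand among those 99: its log2 difference for injury was 1.40 ± 0.22 in APOE4 and 2.30 ± 0.23 in APOE3, and the interaction was -0.90 ± 0.33 (edgeR, unadjusted p = 0.0107, adjusted p = 0.999). Errors of the interaction ran from 0.33 to 1.47 over the ligands, so effects of that order could not be resolved for the sparsest of them.

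APOE4 and APOE3 were also compared at the same injury state. In TBI animals 0 of 8 ligands passed in edgeR, DESeq2 or limma-voom, where 0.447% of all tested genes did in edgeR. No ligand had an unadjusted p under 0.05 in edgeR, where 599 of the 5371 tested genes did. The log2 differences, APOE4 minus APOE3, ran from -0.62 ± 0.35 for Ccl4 to 0.36 ± 0.50 for Ccl8. For Ccl6, the most precisely measured, the difference was -0.18 with a 95% interval from -0.54 to 0.18, and for Ccl2 it was -0.22 with an interval from -0.92 to 0.48. Differences inside those intervals could not be told from 0 with these animals.

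In shams 0 of 8 ligands passed in edgeR, DESeq2 or limma-voom, where 0.168% of all tested genes did in edgeR. An unadjusted p under 0.05 in edgeR was found for 3 of the 8 ligands and for 310 of the 5371 tested genes. Ccl6 had 9 to 21 counts in APOE4 shams and 2 to 18 in APOE3 shams, and averaged 3.07 ± 0.83 CPM in APOE4 shams and 1.97 ± 0.89 CPM in APOE3 shams (SD, n = 7 each), with a log2 difference of 0.72 ± 0.28 (edgeR, unadjusted p = 0.0138, adjusted p = 0.581). Ccl12 had 9 counts over the APOE4 shams and 27 over the APOE3 shams, with a log2 difference of -1.40 ± 0.68 (edgeR, unadjusted p = 0.0493, adjusted p = 0.860). Ccl9 had 2 to 14 counts in APOE4 shams and 6 to 25 in APOE3 shams, with a log2 difference of -0.65 ± 0.28 (edgeR, unadjusted p = 0.0302, adjusted p = 0.738). The ranges of the genotypes overlapped for all 3, and none held after adjustment.

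**Figure D3:**
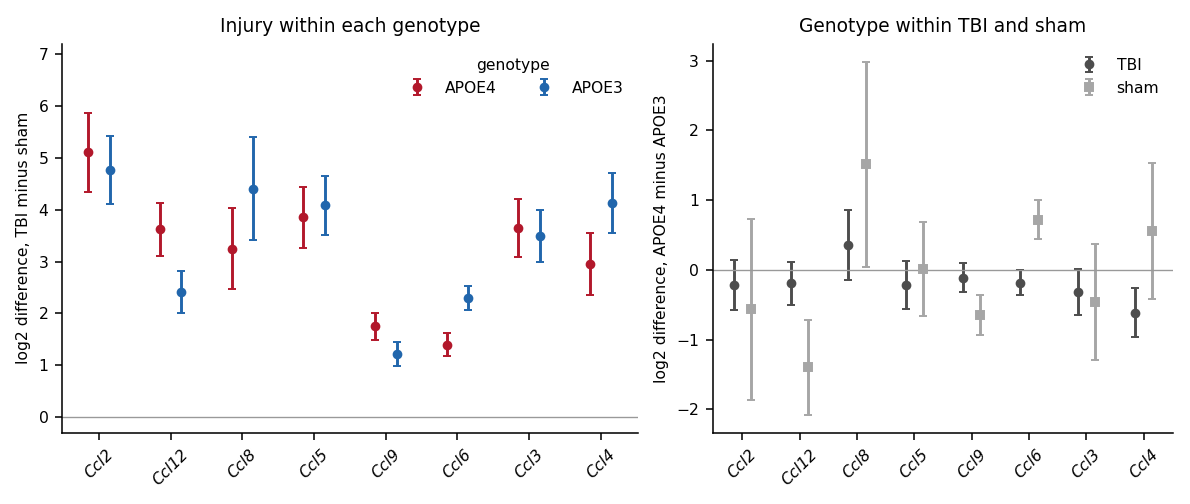
Log2 differences of the 8 tested CC ligands with their standard errors: TBI minus sham within APOE4 and APOE3 (left panel), and APOE4 minus APOE3 within TBI and sham (right panel). All injury differences lie above 0, from 1.21 to 5.11, and the genotype differences lie on both sides of 0.

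The titles carry a letter, F or M, that the labels do not spell out. Within each genotype the animal numbers of the 2 letters do not mix, so the letter and the cohort cannot be told apart. Among TBI animals 2 of the 8 tested ligands were higher with the letter F at an adjusted p under 0.05 and 0 were lower, where 12.8% of all tested genes were higher. Both are the myeloid Ccr1 ligands. Ccl6 had 7.56 to 16.9 CPM (median 12.4) in the 8 TBI animals with F, against 4.08 to 9.42 CPM (median 6.06) in the 8 with M, a log2 difference of 0.88 ± 0.20 (edgeR, adjusted p = 0.00307). The step was seen in both genotypes, at 10.8 ± 2.4 CPM with F and 6.19 ± 0.91 with M in APOE4 TBI, and at 12.6 ± 3.9 with F and 6.29 ± 2.33 with M in APOE3 TBI (SD, n = 4 each). Within the shallow and the deep libraries alone it was 1.00 and 0.83, past the threshold in neither (edgeR, adjusted p = 0.0762 and 0.0908). Ccl9 had 5.41 to 13.4 CPM (median 8.45) with F, against 3.58 to 7.46 CPM (median 5.50) with M, a log2 difference of 0.67 ± 0.21 (edgeR, adjusted p = 0.0262). That call was lost without APOE3 TBI replicate 1, without APOE3 TBI replicate 8 or without APOE4 TBI replicate 6 (0.55, 0.60 and 0.53; edgeR, adjusted p = 0.0666, 0.0616 and 0.0862), and the difference was 0.32 in the deep libraries alone (adjusted p = 0.475).

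Ccl2 narrowly missed the threshold between the letters. It had 1.68 to 10.5 CPM (median 4.30) in TBI animals with F and 1.11 to 6.36 CPM (median 1.65) in those with M, a log2 difference of 0.95 ± 0.35 (edgeR, adjusted p = 0.0539). It passed without APOE3 TBI replicate 4, the M animal with 6.36 CPM, at 1.45 (edgeR, adjusted p = 0.00281), and also without APOE3 TBI replicate 5, APOE3 TBI replicate 6 or APOE4 TBI replicate 5 (adjusted p = 0.0260, 0.0353 and 0.0308). The other 5 ligands ran from -0.63 ± 0.34 for Ccl5 to 0.59 ± 0.33 for Ccl3. Some marker sums of TBI animals differed in the same direction. The 12 of 14 listed monocyte and border macrophage markers in the table summed to 248 to 1280 CPM (median 553) with F. With M they summed to 173 to 481 CPM (median 230), and none of the 12 was at 0 over all TBI animals. Most of that sum is Lyz2, which averaged 306 CPM over the TBI animals and reached 1046 CPM. Of the 10 tested markers 5 were higher with F at an adjusted p under 0.05 in edgeR, Lyz2 among them, and 5 were not called. The 12 microglial markers summed to 1586 to 2387 CPM with F and to 1344 to 1915 CPM with M. Other lists did not follow: T and NK cell markers had a median sum of 10.8 CPM with F and 11.9 CPM with M. Neuronal markers stood at 17240 CPM with F and 17052 CPM with M (medians). The part of these cells in the difference of Ccl6 and Ccl9 was not tested.

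In shams the letters differed for 0% of all tested genes and 0 of 8 ligands in edgeR, where 376 genes had an unadjusted p under 0.05. Ccl9 was the 1 ligand among them, at 0.82 ± 0.29 (edgeR, unadjusted p = 0.00875, adjusted p = 0.534), with 1.80 to 6.17 CPM in shams with F and 0.675 to 2.57 CPM in shams with M. The letter by injury test, run after the values were seen as was the one in shams, passed for 0% of genes and 0 of 8 ligands (461 genes with an unadjusted p under 0.05). For Ccl6 it gave 0.58 ± 0.36 (edgeR, adjusted p = 0.631), so a larger response to injury with the letter F was not resolved.

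Among the injured animals a few were high for many ligands. APOE4 TBI replicate 6 had the highest CPM of 4 of the 8 tested ligands (Ccl2, Ccl3, Ccl4 and Ccl9) and was among the highest 4 animals for 7. APOE3 TBI replicate 4 was highest for Ccl5 and Ccl12 and among the highest 4 for 5. APOE3 TBI replicates 7 and 8 were each among the highest 4 for 6 ligands. At the other end, APOE4 TBI replicate 4 was among the lowest 4 for 7. Summed over all 11 ligands the CPM of TBI animals differed between 21.7 and 72.2. The marker sums followed in part: APOE4 TBI replicate 6 also had the highest sum of monocyte and border macrophage markers (1280 CPM), of microglial markers (2387 CPM) and of the 5 listed T and NK cell markers in the table (20.3 CPM) among the 16. It also had the highest sums of endothelial (342 CPM) and neutrophil markers (22.8 CPM) and the second highest of dendritic cell markers (39.9 CPM). APOE4 TBI replicate 2, highest for Ccl8 at 7.01 CPM, was at place 15 of 16 for the monocyte and border macrophage sum (186 CPM). Their part in these differences was not tested.

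**Figure D4:**
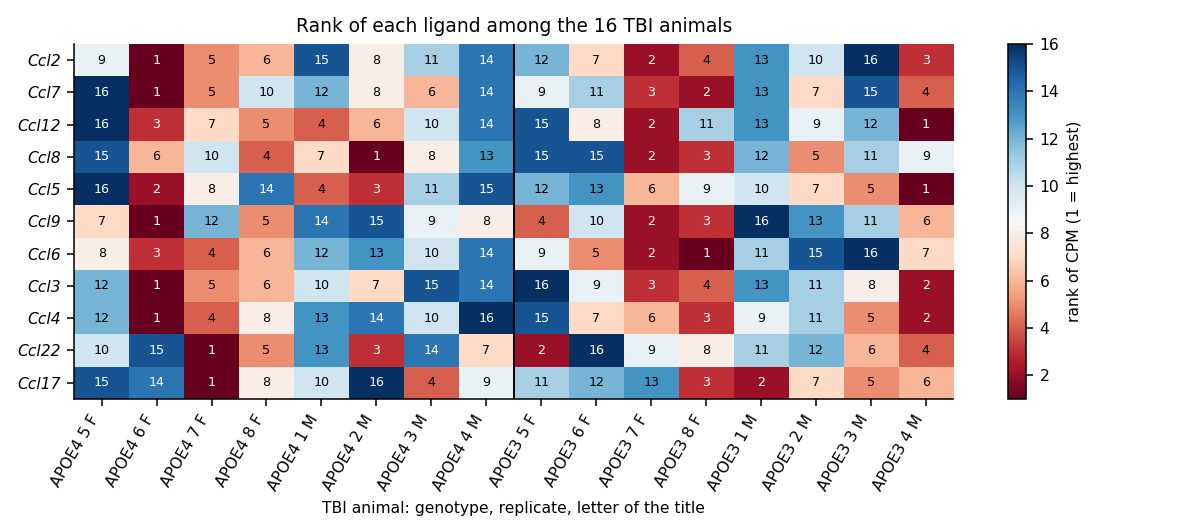
Rank of the CPM of each CC ligand among the 16 TBI animals (1, dark red, is the highest), with APOE4 animals left of the line and APOE3 animals right of it, and the letter F before M within each. APOE4 replicate 6 ranks first for Ccl2, Ccl3, Ccl4 and Ccl9 among the tested ligands, and Ccl17 and Ccl22 peak in another animal, APOE4 replicate 7.

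Over these 16 animals the log2 CPM of 28 pairs of tested ligands was correlated, with permutation p-values (two-sided, 100000 resamples) adjusted over the 28 pairs. Of the pairs 26 had a positive Pearson's r, 26 a positive Spearman's rho, and 12 passed an adjusted p of 0.05 by both. The same counts over pairs of other genes were not computed, so they cannot be read as a trait of the family. Some genes outside the family followed a ligand more closely, such as Pik3r5 with Ccl6 (rho = 0.96). Ccl2 and Ccl6, from different neighbourhoods, had r = 0.80 (permutation p = 2.20e-04, adjusted 0.00308) and rho = 0.84 (permutation p = 1.00e-04, adjusted 0.00280). Their r was 0.77 without the 2 animals farthest from the median of Ccl2. In each pair the animals left out were chosen on the ligand with the lower number alone. Ccl3 and Ccl4, next to each other on the chromosome, had r = 0.73 (permutation p = 0.00173, adjusted 0.0104) and rho = 0.81 (permutation p = 3.20e-04, adjusted 0.00373), with r = 0.73 without the 2 farthest. Ccl5 and Ccl6 did not pass, at r = 0.01 (permutation p = 0.959) and rho = -0.01 (permutation p = 0.978), but their rho was 0.75 once genotype, letter and depth class were removed. Ccl5 and Ccl12 passed, at r = 0.71 (permutation p = 0.00192, adjusted 0.0104) and rho = 0.69 (permutation p = 0.00398, adjusted 0.0223), where r fell to 0.54 without the 2 farthest.

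These relations rest on few animals. By both measures 4 pairs passed without the 2 farthest animals. Those animals differ between pairs, and outlying values of the other ligand of a pair were not removed on its own values. Within the 8 shallow TBI libraries 0 pairs passed, with rho from -0.25 to 0.83, and within the 8 deep ones 1 passed, with rho from -0.07 to 0.95 (exact permutation of 8 animals). For Ccl2 and Ccl6 rho was 0.71 in the shallow and 0.74 in the deep libraries, and for Ccl3 and Ccl4 it was 0.64 in the shallow and 0.95 in the deep libraries. After genotype, letter and depth class were removed from the log2 CPM, 21 pairs passed. The permutation took no account of the terms removed, so its p-values may be too small and that number too high. Ccl2 and Ccl5 then had rho = 0.85, against 0.28 before, and Ccl2 and Ccl9 had 0.29, against 0.60 before.

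**Figure D5:**
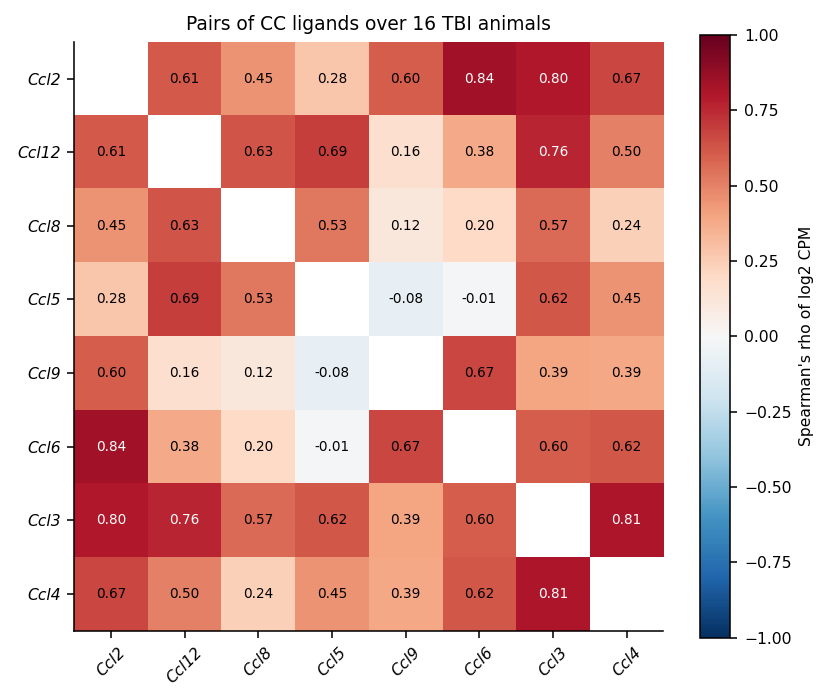
Spearman's rho of the log2 CPM for each of the 28 pairs of tested CC ligands over the 16 TBI animals, ordered by position on chromosome 11. Values are highest for Ccl2 with Ccl6 (0.84) and Ccl3 with Ccl4 (0.81), and near 0 for Ccl5 with Ccl6 and with Ccl9.

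For the 3 ligands with most counts, the genes outside the family whose log2 CPM followed them most closely over the 16 TBI animals were listed by Spearman's rho, as a description of animals that share their differences in depth and tissue. They were Pik3r5 (0.96), Nckap1l (0.92) and Tec (0.91) for Ccl6, and Plekhg2 (0.85), Acadvl (0.83) and Lbp (0.81) for Ccl9. For Ccl3 they were Cd9 (0.94), Lect1 (0.93) and Mlph (0.93).

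Receptors of the ligands were counted in the same libraries, and Ccr2 and Ccr1 were both higher in TBI. Ccr2, the receptor of Ccl2, Ccl7 and Ccl12 on monocytes, averaged 4.02 ± 3.30 CPM in TBI animals and 0.604 ± 0.401 CPM in shams, a log2 difference of 2.43 ± 0.37. Ccr1 averaged 2.39 ± 1.28 CPM in TBI animals and 0.801 ± 0.628 CPM in shams (1.62 ± 0.30; SD, n = 16 and 14). Both passed an adjusted p of 0.05 in edgeR. For Ccr2, 14 of 16 TBI animals lay above every sham, and for Ccr1 6 of 16 did. Ccr4 and Ccr8, receptors of Ccl17, Ccl22 and mouse Ccl8, were not analysed here. Of 6 listed atypical and related receptors 4 were tested. Ccrl2 was higher (1.37 ± 0.23), and Ackr2, a scavenger of CC ligands, was lower (-0.43 ± 0.18), as was Pitpnm3 (-0.28 ± 0.05). Ackr1 was called higher at 0.13 ± 0.04, near the median of 0.10 over all tested genes. The TMM scaling rested on genes selected on injury, so the direction of differences that small may depend on it.

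Genes of the pathway around the ligands that were in the table followed in larger part upward. The table was selected on injury, so these counts leave out listed genes outside it. Of 36 listed genes of chemokine receptor signalling 24 were in the table and 23 tested. Of these 23, 18 were higher and 5 lower in TBI (median log2 difference 1.00). They were led by the myeloid kinase Fgr (4.46 ± 0.39), the small GTPase Rac2 (1.85 ± 0.17) and the integrin chain Itgb2 (1.73 ± 0.15). The exchange factors Vav1 (1.45 ± 0.11) and Dock2 (1.37 ± 0.13) came next. The 5 lower ones, named after their values were seen, were Gnb1, Arrb1, Adrbk1, Grk6 and Elmo1, at -0.18 to -0.11. Differences that small may depend on the TMM scaling over genes selected on injury. Of 36 listed inducers and NF-kB pathway genes 29 were in the table and 27 tested. Of these 27, 26 were higher and 1, Fos, was lower (-0.63 ± 0.18). The largest rises were in the receptor Tlr2 (3.08 ± 0.23), the interferon regulatory factors Irf7 (1.98 ± 0.21) and Irf8 (1.59 ± 0.15), the cytokine Il1a (1.41 ± 0.22) and the TNF receptor Tnfrsf1b (1.36 ± 0.15). Their medians stood at 1.00 and 0.65, against 0.10 over all tested genes, where 48.2% were higher.

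Of 15 listed chemokines of other classes 7 were in the table and tested. Of these 7, 6 were higher in TBI and 1 lower, where 48.2% of all tested genes were higher. Cxcl5 (5.44 ± 0.47) and Cxcl10 (4.73 ± 0.36), ligands of Cxcr2 and Cxcr3, were followed by Cxcl9 (3.78 ± 0.43), Cxcl1 (3.52 ± 0.49) and Cxcl16 (1.99 ± 0.18). The lower one was the neuronal chemokine Cx3cl1 (-0.37 ± 0.05), at 1421 ± 152 CPM in TBI animals and 1837 ± 145 CPM in shams. Ccl27a, a CC ligand left out by the rule because of the letter after its number, averaged 36.9 ± 10.3 CPM in TBI animals and 42.4 ± 8.1 CPM in shams, a log2 difference of -0.22 ± 0.10 (edgeR, adjusted p = 0.0446). Like Ccl17 it was lower in TBI.

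Markers of the cells that could make or follow the ligands moved with injury. The table was selected on that contrast, so counts of markers by direction add no separate evidence. Of all tested genes 48.2% were higher, and 2599 of the 5582 listed genes had a negative coefficient in the authors' table. All 12 tested microglial markers were higher in TBI, with sums of 1344 to 2387 CPM in TBI animals and 802 to 1089 CPM in shams. Of 14 markers of infiltrating monocytes and border macrophages 12 were in the table and all 10 tested were higher, led by Lyz2 (4.33 ± 0.30), Msr1 (3.33 ± 0.38), Ms4a7 (3.20 ± 0.35), Ccr2 (2.43 ± 0.37) and Stab1 (1.16 ± 0.11). Their sums were 173 to 1280 CPM in TBI animals and 46.5 to 88.9 CPM in shams. Of 16 T and NK cell markers 5 were in the table, summing to 7.04 to 20.3 CPM in TBI animals and 6.39 to 14.8 CPM in shams. Of the 3 tested, Trac and Lck were higher and Trbc2 was lower (-1.07 ± 0.17), and the defining markers Cd3e, Cd3g, Cd3d, Cd4 and Nkg7 were not analysed here. The 8 astrocyte markers were all higher, with sums of 14174 to 21174 CPM in TBI animals and 11580 to 13877 CPM in shams. Of 10 listed endothelial markers 4 were in the table and tested, and all 4 were higher. Among them were the adhesion molecules Icam1 (1.84 ± 0.18) and Vcam1 (0.92 ± 0.09). The 4 summed to 188 to 342 CPM in TBI animals and 132 to 158 CPM in shams. B cell markers in the table (2 of 6) summed to 3.87 to 63.7 CPM in TBI animals and 0.294 to 2.20 CPM in shams, with Igkc higher (4.05 ± 0.47). Of 7 listed dendritic cell markers 3 were in the table and 2 tested. Itgax, which microglia and macrophages can also express, was higher (4.19 ± 0.23) and Flt3 was lower (-0.44 ± 0.09). Neutrophil markers in the table (2 of 8) summed to 0.561 to 22.8 CPM in TBI animals and 0 to 2.15 CPM in shams, with S100a8 higher (3.09 ± 0.49). Of 13 listed neuronal markers 11 were in the table and tested, and 10 of the 11 were lower. The labelled tissue was checked with Slc17a7, the vesicular glutamate transporter of cortical and hippocampal neurons, which averaged 2802 ± 375 CPM in TBI animals and 3104 ± 249 CPM in shams. Their part in the differences of the CC ligands was not tested. Ccr2 and Pf4 stand in 2 of the lists used here.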

How the data were processed

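Bulk RNA-seq was run on 32 mice. The authors deposited 1 table of whole-number read counts per gene, not normalised, beside their log2 coefficient and p-value for TBI against sham, per the file headers. Those log2 coefficients and p-values are the authors' deposited values. Per the submitters' processing notes, the tools were Subread 1.5.0 with edgeR 3.14.0 and the build was mm10. For the annotation and the strand setting nothing is given in the sources used here. The highest p-value deposited by the authors was 0.0502, so the genes were selected on injury. Gene identifiers served to recover 13 symbols stored as dates.

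The libraries E2073 and F1372 have labels that contradict each other and stayed out of every comparison. Counts of the other 30 were TMM-scaled and tested with edgeR 4.0.16 (R 4.3.3; filterByExpr with a minimum count of 10, quasi-likelihood F-test, Benjamini-Hochberg over 5371 genes). Models held the 4 groups plus the letter of the title, or genotype and letter. The quasi-likelihood test itself reports no SE. Errors of log2 differences are the absolute log2 difference over the square root of the F statistic. Intervals of log2 differences were built from these errors with a normal quantile. Such errors are approximate and can be too small where the difference is near 0. The common biological coefficient of variation over the tested genes was 11.5%. CPM is the count over the TMM-scaled total of the listed genes, which is not the full library depth. Intervals of pooled ratios are exact conditional binomial ones for counting error only. Log2 CPM used a prior count of 1. Pair tests used SciPy 1.17.1. The fit was tested on simulated data in which every gene had that common coefficient and no effect of genotype or letter. Ligands spread more widely, such as Ccl2 at 3.57 ± 2.75 and Ccl8 at 2.13 ± 1.83 CPM (SD, 16 TBI animals). The simulation therefore does not speak for genes of that spread. Alternatives were DESeq2 1.42.0, limma-voom 3.58.1, no filter, no TMM, other placings of the 2 libraries, no letter, depth class, shallow or deep libraries alone, a threshold of 0.01 and leaving out each library.

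Ligands with at least 100 counts over the TBI animals are described in full. From each other list at most the 5 genes with the largest called injury difference are named, plus known receptors of a ligand, and for likeness the 3 nearest genes of the 3 ligands with most counts. Genes named as the only lower ones of a list were chosen after their values were seen. The members and lists were chosen with earlier results of these data known. Promoters and coordinates came from RefSeq tables, and coding sequences and exon lengths from GENCODE M21. Some receptor results are not reported here.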

Additional observations from a re-analysis of the deposited data

Results flagged for a closer look

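Single animals stood apart from the rest of their group in 8 of 44 combinations of ligand and group, judged by the gap to the next animal against the range of the group. For normally spread values chance alone gives about 1 in 20, a rate that was not computed for counts as low as these. In APOE4 TBI, replicate 6 had 10.5 CPM of Ccl2 (29 counts), against 4.48 CPM in the next animal, and 13.4 CPM of Ccl9 (37 counts), against 7.67 CPM in the next. Also in APOE4 TBI, replicate 2 had 7.01 CPM of Ccl8 (25 counts), against 2.95 CPM in the next. In APOE3 TBI, replicate 4 had 9.54 CPM of Ccl5 (78 counts), against 5.56 CPM in the next. The other 4 were shams with 4 counts or fewer. APOE4 sham replicate 6 had 0.799 CPM of Ccl5 (4 counts), APOE3 sham replicate 1 had 1.23 CPM of Ccl3 (4 counts), and APOE3 sham replicate 4 had 0.441 CPM of Ccl7 and 0.441 CPM of Ccl8 (1 count each).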

How the results depend on the processing

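No called difference of a ligand changed sign. The 8 ligands called for injury stayed called and higher in TBI under every alternative in which they passed the filter, over both genotypes and in each genotype, and genotype and interaction calls stayed at 0 under all alternatives. The number of ligands called for injury was 5 of 5 tested in the shallow libraries alone in each of the 3 injury comparisons, where fewer passed the filter, 6 of 6 tested with the disputed libraries placed by title or by characteristics, and 7 to 8 when single libraries were left out. The number higher with the letter F in TBI animals was 1 at a threshold of 0.01, 1 with both disputed libraries placed by their characteristics, 1 in the shallow and 0 in the deep libraries alone, and 1 to 4 when single libraries were left out. Pairs passing by both measures were 21 after removal of genotype, letter and depth class, with p-values that take no account of that removal. They were 4 without the 2 animals farthest from the median of the lower-numbered ligand, 0 in shallow and 1 in deep libraries alone. No paired analysis was possible because the replicate numbers were given in accession order and do not pair animals. Low counts limit Ccl7, Ccl17 and Ccl22, which did not pass the filter over the 30 libraries, and the size of every ratio to shams. Ccl4, Ccl8 and Ccl2 passed it in only part of the alternatives. Ccl4 was tested for injury in 23 of the 30 fits that left out a library. Over 11 other settings Ccl4 and Ccl8 were each tested in 8 and Ccl2 in 10.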

Other observations

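The 2 libraries with contradicting labels belong to no group. The library E2073, titled as APOE4 sham and described as TBI, had 1 count of Ccl2, 2 of Ccl3, 2 of Ccl4, 0 of Ccl5, 11 of Ccl6, 0 of Ccl7, 3 of Ccl8, 14 of Ccl9, 3 of Ccl12, 7 of Ccl17 and 0 of Ccl22. The library F1372, titled as APOE3 sham and described as APOE4 sham, had 2 counts of Ccl2, 1 of Ccl3, 0 of Ccl4, 3 of Ccl5, 5 of Ccl6, 1 of Ccl7, 0 of Ccl8, 9 of Ccl9, 2 of Ccl12, 2 of Ccl17 and 0 of Ccl22. Ccl2 stood at 0.355 CPM in E2073 and at 0.644 CPM in F1372, against 1.11 CPM in the lowest TBI animal and 0.486 CPM in the highest sham of the other 30.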
